A study of Mus musculus with 36 samples.

Results

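The keratin rows of the deposited expression table were followed across 36 bulk RNA-seq libraries. A row was taken when its gene symbol consisted of Krt followed by digits only, which gave 16 of 18781 rows. Krt6a, whose symbol ends in a letter, fell outside that rule and is described only as the partner of Krt16 and Krt17. The libraries came from age- and sex-matched wild-type C57BL/6 mice that all carried MC38 tumors, grown from a mouse colon carcinoma cell line. The mice had been given immune checkpoint blockade (ICB), a high dose of antibodies against PD1 and CTLA4, which release brakes on T cells, or control IgG. Each of 6 tissues, the tumor, lung, kidney, liver, heart and skeletal muscle, had 3 ICB and 3 IgG libraries. The labels give neither the ages nor the times of collection, and they do not say whether replicate libraries stem from separate animals. The p-values therefore set differences only against an estimate of how much these samples vary, part of which may be technical.

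Keratins are the intermediate filament proteins of epithelial cells. A filament forms only when a type I keratin pairs with a type II keratin, so the genes of both types are usually used together. Krt8 (type II) and Krt18 (type I) are the pair of simple, single-layered epithelia and the main keratins of hepatocytes, while Krt7 (type II) and Krt19 (type I) mark ducts and many lining epithelia. Krt5 pairs with Krt14 or Krt15 in the basal layer of stratified epithelia such as skin, and Krt10 belongs to the layers above. Krt6a, Krt16 and Krt17 are induced in wounded or stressed skin and in many squamous tumors. Type I genes other than Krt18 lie together on mouse chromosome 11, and the type II genes lie on chromosome 15 next to Krt18.

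The promoters of Krt7, Krt8 and Krt18 are shown because the levels of these 3 genes set liver, kidney, lung and tumor apart in the values that follow. The sequences are from RefSeq on GRCm38.p6, run 5′ to 3′ from 250 bases before the annotated start to 50 bases after it, and were available for 9 of the 16 rows. Capitals mark the matches of a search on both strands for the TATA box TATAAA, the GC box GGGCGG and the AP-1 motif TGANTCA. The Krt7 window is chr15:101412153-101412452, plus strand, the Krt8 window chr15:102004293-102004592, minus strand, and the Krt18 window chr15:102027966-102028265, plus strand.
Krt7 promoter: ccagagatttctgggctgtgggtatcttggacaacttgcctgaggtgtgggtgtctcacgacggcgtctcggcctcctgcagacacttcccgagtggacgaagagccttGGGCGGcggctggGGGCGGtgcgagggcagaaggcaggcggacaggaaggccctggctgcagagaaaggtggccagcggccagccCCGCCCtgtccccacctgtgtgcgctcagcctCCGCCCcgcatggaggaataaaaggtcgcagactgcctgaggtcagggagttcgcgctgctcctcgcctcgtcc
Krt8 promoter: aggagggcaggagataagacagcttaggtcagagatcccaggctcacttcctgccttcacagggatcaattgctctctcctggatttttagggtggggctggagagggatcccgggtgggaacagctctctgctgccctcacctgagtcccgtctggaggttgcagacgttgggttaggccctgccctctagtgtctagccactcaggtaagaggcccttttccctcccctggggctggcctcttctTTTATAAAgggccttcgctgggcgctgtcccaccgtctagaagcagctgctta
Krt18 promoter: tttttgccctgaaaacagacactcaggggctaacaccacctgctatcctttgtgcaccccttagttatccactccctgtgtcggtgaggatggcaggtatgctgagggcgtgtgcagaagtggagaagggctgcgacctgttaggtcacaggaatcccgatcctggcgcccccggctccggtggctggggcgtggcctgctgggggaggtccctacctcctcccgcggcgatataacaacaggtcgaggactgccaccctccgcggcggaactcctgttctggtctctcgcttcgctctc
The Krt7 window held 4 GC boxes and neither other motif. The Krt8 window held 2 overlapping matches to the TATA box, read once on each strand, and neither other motif. The Krt18 window held none of the motifs in these letters. Of 32851 mouse promoter windows of this length, 35.7% held a GC box, 13.6% a TATA box and 7.81% the AP-1 motif. A match is only a description of the letters.

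Expression was read as FPKM, fragments per kilobase of gene, so levels set between genes depend on the length used for each. In 1 IgG lung Krt7 had 5858 reads at 27.84 FPKM, while Krt8 had 3516 reads at 65.31 FPKM. The values were not scaled to depth alone: recovered from them, each library also carried a factor that divides its values, of 0.53 to 0.65 in liver, 0.72 to 0.88 in muscle, 0.81 to 0.90 in heart, 1.04 to 1.13 in kidney, 1.45 to 1.596 in lung and 1.47 to 1.55 in tumor. FPKM in liver are thus raised relative to lung and tumor, and levels set across tissues depend on this scaling. Libraries held 19005189 to 25512980 reads. In CPM, reads scaled to a common library size, the keratin rows together took 920.5 to 1241 in lung, 427.1 to 801.0 in liver and 269.1 to 388.5 in kidney. They took only 6.94 to 31.3 in tumor, 8.01 to 18.8 in muscle and 23.8 to 29.9 in heart. In tumor this came to 177 to 679 keratin reads per library, so single tumor keratins rest on few reads. The hepatocyte list (Alb and 4 others) summed to 62100 to 80700 FPKM in liver and the kidney tubule list to 3612 to 4163 FPKM in kidney, as the tissue labels say. Such bulk values cannot tell fewer cells of a type from less RNA per cell.

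A level of 1 FPKM or more in at least 3 libraries of a tissue was reached by 9 keratin rows in kidney, 7 in lung, 3 each in tumor, liver and muscle, and 2 in heart. These were Krt5, Krt7, Krt8, Krt10, Krt15, Krt18, Krt19, Krt23 and Krt80 in kidney, Krt7, Krt8, Krt18, Krt19, Krt23, Krt79 and Krt80 in lung, and Krt8, Krt18 and Krt19 in liver. In tumor they were Krt16, Krt17 and Krt80, in muscle Krt14, Krt17 and Krt80, and in heart Krt80 and Krt222. Thus 14 of the 16 rows reached this level somewhere. The exceptions were Krt20, an intestinal and urothelial keratin, and Krt87, a hair keratin. Of all 18760 uniquely named rows, 16123 reached the level in at least 1 tissue, a share close to that of the keratins. In a single tissue 60% to 67.9% of all rows reached it.

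The summed keratin FPKM was 579.1 ± 121.9 in liver, 302.4 ± 42.8 in lung and 127.4 ± 13.8 in kidney (mean and SD, n = 6 each). It was 8.05 ± 3.39 in tumor, 7.80 ± 2.53 in muscle and 11.6 ± 0.857 in heart, and the ranges of these 3 tissues lay far below those of the other three. The order of liver over lung rests on the scaling: with FPKM multiplied by the library factor, so that reads alone set the scale, the sum was 342.7 ± 80.7 in liver and 465.3 ± 50.7 in lung, with overlapping ranges. The make-up differed as much as the sum. In liver Krt8 gave 57.0% and Krt18 42.4% of the keratin FPKM, so this pair made up nearly the whole. In kidney Krt8 gave 60.1%, Krt7 12.2% and Krt18 12.1%. Lung divided its keratin FPKM among Krt8 (24.4%), Krt19 (22.6%), Krt80 (21.4%), Krt18 (17.03%) and Krt7 (9.64%). Such shares rest on the gene lengths used. In reads over the 6 libraries, Krt7 had 39860 in lung against 25852 for Krt8, and 15733 in kidney against 19878. In tumor Krt17 gave 36.2%, Krt80 34.9% and Krt16 12.1%, and Krt8 with Krt18 only 4.07% and 1.48%.

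**Figure D1:**
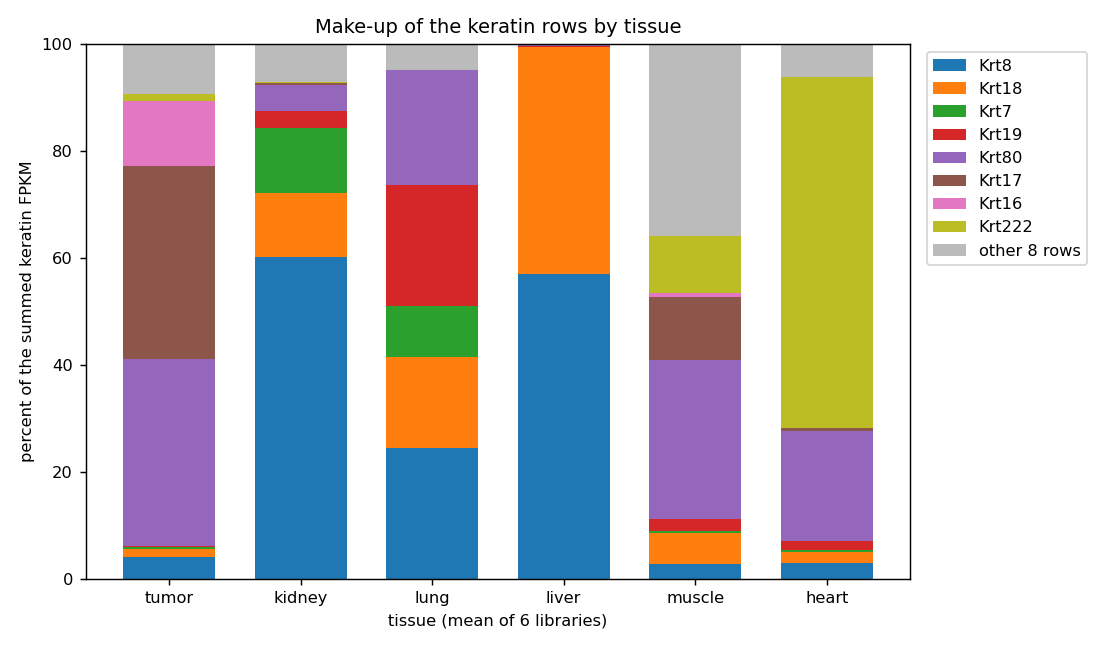
Share of the summed keratin FPKM (percent, mean over the 6 libraries of a tissue) that 8 named keratin rows and the other 8 together (grey) give in each tissue. The shares rest on the gene lengths behind the FPKM. Krt8 and Krt18 fill the liver bar (57.0% and 42.4%), Krt17, Krt80 and Krt16 most of the tumor bar, and Krt222 most of the heart bar (65.6%).

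Krt8 and Krt18 were highest in liver, and their means stayed highest there when scaled to reads alone. On that scale the ranges overlapped for Krt18, at 116.9 to 208.2 in liver and 60.1 to 129.9 in lung. For Krt8 they lay close together, at 144.0 to 278.7 in liver and 91.1 to 140.4 in lung. Krt8 had 270.7, 288.6 and 350.4 FPKM in ICB livers, against 296.5, 465.3 and 310.1 FPKM in IgG livers. Krt18 had 219.8, 202.6 and 229.9 FPKM in ICB livers, against 253.1, 347.6 and 220.7 FPKM in IgG livers. One IgG liver was the highest of the 6 for both genes, and the treatment groups overlapped for both. In kidney Krt8 had 77.0, 69.0 and 82.5 FPKM with ICB, against 72.2, 89.1 and 69.7 FPKM with IgG. Krt18 had 15.6, 13.4 and 15.4 FPKM in ICB kidneys, against 19.1, 16.3 and 12.8 FPKM in IgG kidneys. Kidney therefore held a large excess of the type II partner: Krt8 over Krt18 was 5.03 ± 0.643 in kidney, 1.502 ± 0.282 in lung and 1.35 ± 0.131 in liver (SD, n = 6 each). The kidney range of 3.79 to 5.47 did not reach that of lung (1.08 to 1.90) or liver (1.17 to 1.52). Over all rows, type II over type I FPKM was 3.76 ± 0.514 in kidney, 1.37 ± 0.214 in lung and 1.34 ± 0.129 in liver. Both kinds of ratio rest on the gene lengths behind the FPKM. For Krt8, 26.9% of the 50-base stretches of its transcripts also occur in the pseudogene Krt8-ps, so its reads may be shared.

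In lung Krt8 had 58.4, 71.5 and 76.5 FPKM with ICB, against 65.3, 97.1 and 74.2 FPKM with IgG. Krt18 had 40.6, 48.5 and 44.6 FPKM in ICB lungs, against 46.5, 89.8 and 39.0 FPKM in IgG lungs. The same IgG lung was highest for Krt8 and Krt18, and the groups overlapped for both. Krt19, a type I keratin that pairs with Krt7 or Krt8, was nearly as high in lung as Krt8, at 58.4, 69.2 and 68.1 FPKM with ICB, against 59.3, 82.0 and 72.9 FPKM with IgG. In kidney Krt19 was much lower, at 5.74, 1.61 and 4.30 FPKM with ICB, against 4.75, 4.08 and 3.26 FPKM with IgG. In liver Krt19, there a bile duct keratin, had 1.03, 1.36 and 0.399 FPKM with ICB, against 0.870, 2.503 and 1.51 FPKM with IgG. Its order of lung over kidney over liver held for every library except 1 kidney library, which fell within the liver range in FPKM but not when scaled to reads alone. Krt7, the other ductal keratin, had 23.0, 29.0 and 28.6 FPKM in ICB lungs, against 27.8, 38.6 and 28.0 FPKM in IgG lungs. In kidney Krt7 had 17.3, 11.99 and 13.7 FPKM with ICB, against 15.02, 20.65 and 14.5 FPKM with IgG, all below the lung libraries. In liver Krt7 was at 0.0734 to 0.471 FPKM. Krt23, another type I keratin, had 4.62 to 6.71 FPKM in lung and 1.24 to 1.81 FPKM in kidney, and these ranges were apart.

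In tumor the same simple keratins were close to zero. Krt8 had 0.177, 0.823 and 0.0698 FPKM in ICB tumors, against 0.200, 0.463 and 0.230 FPKM in IgG tumors, from 4 to 55 reads. Krt18 had 0.0832, 0.174 and 0.0675 FPKM in ICB tumors, against 0.129, 0.206 and 0.0556 FPKM in IgG tumors, from 3 to 10 reads. Krt19 reached at most 0.0340 FPKM and Krt7 at most 0.0939 FPKM in any tumor library. Krt23 had 0 reads in all 6 tumors, where 3 reads in a library would have given 0.0497 to 0.0604 FPKM. Of 19 epithelial identity genes in the table, 6 stayed under 0.1 FPKM in all 6 tumors and 3 reached 1 FPKM in at least 3 of them. The sum of the 19 was 5.03 to 8.37 FPKM in ICB tumors and 5.68 to 12.7 FPKM in IgG tumors, against 308.2 to 364.4 FPKM in kidney. Epcam, an epithelial adhesion molecule, was at 0 to 0.203 FPKM in tumor. Of 4 colon epithelial markers in the table, Car1 was at 0 in all 6 tumors and Vil1 at 0.204 to 1.32 FPKM. The 4 markers summed to 0.454 to 0.765 FPKM in ICB tumors and 0.374 to 1.90 FPKM in IgG tumors, in libraries whose labels name a colon carcinoma line. Vim, the intermediate filament gene of mesenchymal cells, was at 358.5 to 381.7 FPKM in ICB tumors and 283.4 to 419.7 FPKM in IgG tumors.

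**Figure D2:**
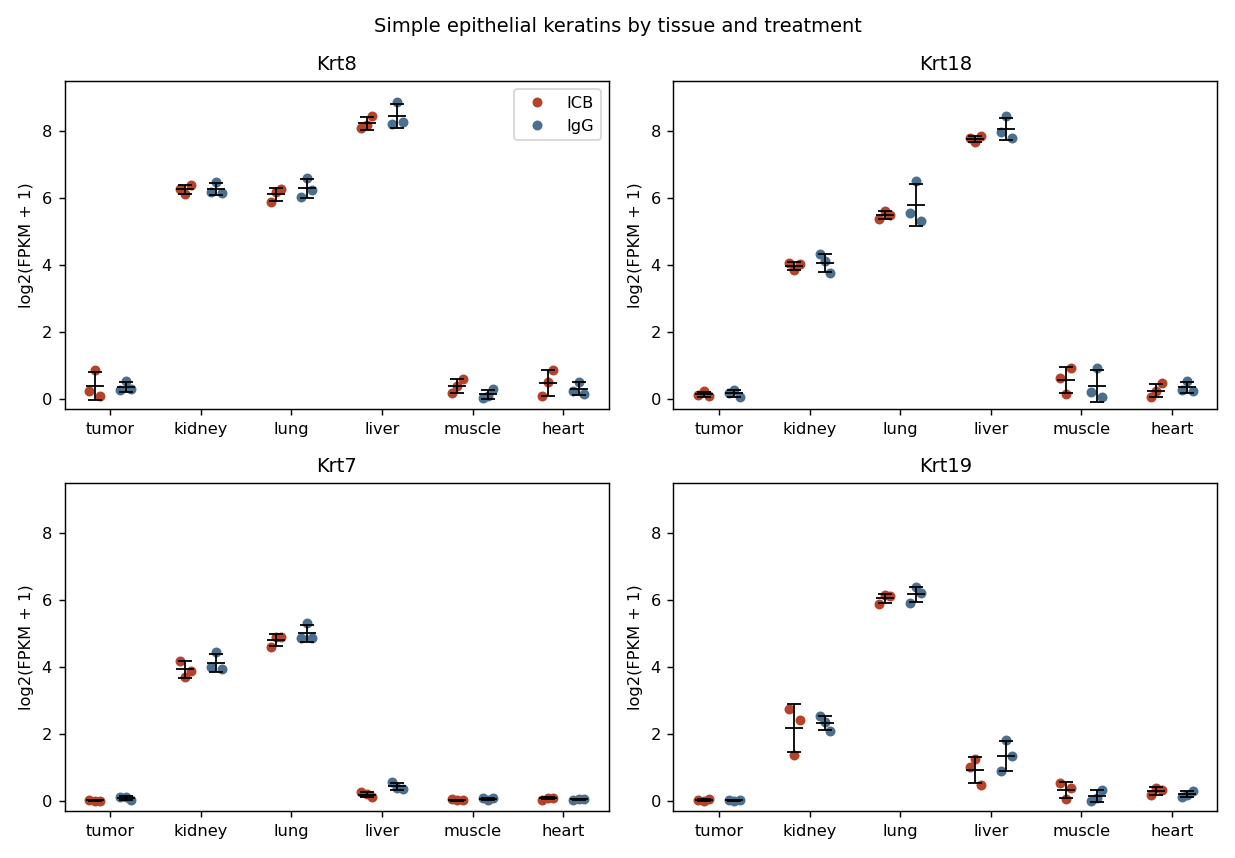
Krt8, Krt18, Krt7 and Krt19 in every library of the 6 tissues, as log2(FPKM + 1), with ICB left of IgG, one point per library, and the group mean and SD in black. Tumor, muscle and heart lie near 0 for all 4 genes, liver is highest for Krt8 and Krt18, and lung is highest for Krt7 and Krt19.

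Krt80, a type II keratin of several stratified and simple epithelia, passed the level of 1 FPKM in 5 of the 6 tissues, liver being the exception. In lung it had 91.9, 60.9 and 64.8 FPKM with ICB, against 38.3, 62.0 and 70.5 FPKM with IgG. It was at 5.01 to 7.25 FPKM in kidney, 0.541 to 3.96 FPKM in tumor, 1.71 to 3.26 FPKM in muscle and 1.55 to 4.73 FPKM in heart. The lung range lay above all others, and the kidney range above those of tumor, muscle and heart, although kidney and tumor overlapped when scaled to reads alone. In GENCODE M21 the antisense gene Gm35853 spans the whole of Krt80 on the other strand. The strand setting of the counting is not given in the sources used here, so the reads of this pair cannot be told apart. Krt79, a type II keratin of hair canal and sebaceous duct, had 4.75, 3.48 and 3.84 FPKM in ICB lungs, against 6.41, 3.28 and 5.84 FPKM in IgG lungs. Outside lung Krt79 never exceeded 0.302 FPKM.

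Basal keratins were low and varied between libraries of one tissue. In kidney Krt5 had 3.62, 0.716 and 1.57 FPKM with ICB, against 2.75, 1.35 and 1.37 FPKM with IgG, and Krt15 was at 1.34 to 2.32 FPKM. The kidney library with the least Krt5 also had the least Krt19, and the one with the most Krt5 had the most Krt19. Markers of urothelium, the lining of the renal pelvis, moved with them in those 2 libraries, both ICB: the 4 uroplakins on the list summed to 15.9 FPKM where Krt5 was highest and to 5.72 FPKM where it was lowest. Over the groups that sum was 5.72 to 15.9 FPKM in ICB kidneys and 8.62 to 13.8 FPKM in IgG kidneys, with none of the 4 genes near 0, and its part in the keratin values was not tested. Krt20, also a urothelial keratin, reached 3.79 FPKM in 1 ICB kidney and 0.0581 to 0.962 FPKM in the other 5. Krt10 was at 1.61 to 3.34 FPKM in kidney.

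In lung Krt15 had 0.0855, 9.97 and 0.983 FPKM with ICB, against 0.664, 2.21 and 0.575 FPKM with IgG, so a single ICB library stood far above the rest. The same library had the highest Krt5, at 1.84 FPKM, where the other 5 had 0 to 0.404 FPKM. It also had the most Bpifa1, a secretory gene of the large airways, at 690.1 FPKM, while the other 5 had 72.5 to 582.8 FPKM. Bpifa1 is 1 of 7 airway genes on the list, and their sum was not highest in this library. That sum was 21240 FPKM there, 14290 and 10660 FPKM in the other ICB lungs and 22240 to 42210 FPKM in IgG lungs. The part of airway cells in the Krt15 and Krt5 values was not tested. In muscle Krt14 had 1.32, 0.161 and 0.0997 FPKM with ICB, against 2.16, 0.576 and 1.82 FPKM with IgG. Krt17 had 1.96, 0.220 and 0.151 FPKM in ICB muscles, against 1.88, 0.245 and 1.07 FPKM in IgG muscles. Krt5 had 0.776, 0.0259 and 0 FPKM in ICB muscles, against 2.45, 0.433 and 1.93 FPKM in IgG muscles. The same 3 muscle libraries, 1 ICB and 2 IgG, were highest for Krt5, Krt14 and Krt17. The 10 epidermal marker genes in the table summed to 3.02 to 4.18 FPKM in ICB muscles and 2.62 to 3.62 FPKM in IgG muscles. Only 1 of the 10 stayed under 0.1 FPKM in all 6 muscles, Flg, a gene of the cornified layer, at 0. The part of these markers in the keratin values was not tested.

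Krt222, a keratin-like type I gene, was the main keratin row of heart. It had 9.43, 7.30 and 4.21 FPKM in ICB hearts, against 7.11, 8.22 and 9.45 FPKM in IgG hearts. In muscle it was at 0.442 to 1.17 FPKM and in the other 4 tissues at no more than 0.346 FPKM. Krt16 was confined to tumor at this depth apart from traces in muscle and kidney. It had 315 reads over the 6 tumors, 9 over the 6 muscles, 3 over the 6 kidneys and 0 in lung, liver and heart, where 3 reads in a library would have given 0.0528 to 0.182 FPKM. Krt17 was at 0.635 to 5.36 FPKM in tumor and at 0.151 to 1.96 FPKM in muscle. In kidney it was at 0.0862 to 0.984 FPKM, in lung at 0.0195 to 0.480 FPKM, and in liver it had 0 reads. The type II partner of both in stressed skin, Krt6a, was nearly missing from tumor. It had 0.0516, 0 and 0 FPKM in ICB tumors, against 0.280, 0.102 and 0.115 FPKM in IgG tumors, 4 to 21 reads where there were any. Of its 50-base stretches 45.7% also occur in other genes. Krt5, another type II keratin, was at 0 to 0.344 FPKM in tumor, and Krt80 gave most of the type II FPKM there.

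**Figure D3:**
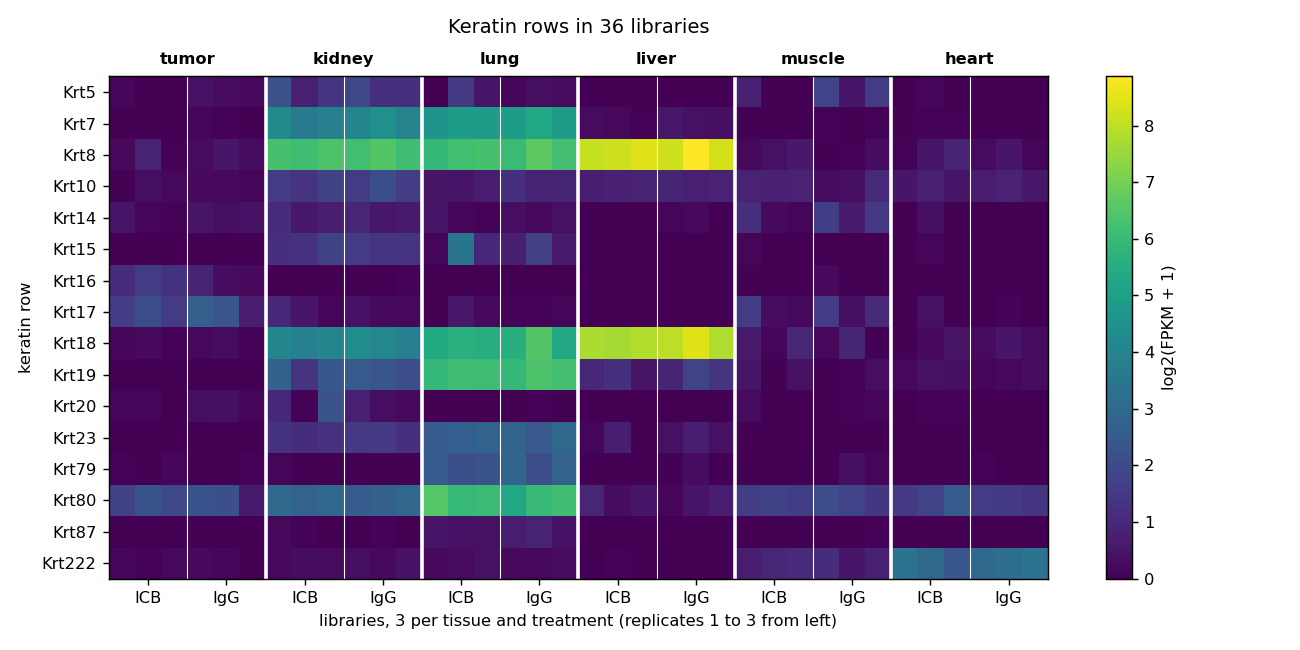
All 16 keratin rows in all 36 libraries, as log2(FPKM + 1), with the libraries of each tissue side by side and ICB left of IgG. Blocks of high values appear for Krt8 and Krt18 in liver, for Krt7, Krt8, Krt18, Krt19 and Krt80 in lung, for Krt8, Krt7 and Krt18 in kidney and for Krt222 in heart, while Krt16 is visible only in tumor.

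The tissues were compared with limma on log2(FPKM + 1) in 1 fit of all 36 libraries, each tissue being the mean of its ICB and IgG groups, with Benjamini-Hochberg adjustment over the 16123 rows that passed in some tissue and a threshold of 0.05. The libraries were treated as independent, although numbers in the sample titles recur across tissues. Of the 16 keratins 14 could be tested. Most rows of the genome differ between organs in such a fit, so counts of keratins are read against that share. A log2 difference on this scale understates the change of low genes. The median difference over all rows lay between -0.01 and 0.05 in these comparisons. On a TPM scale, which sets every library to the same sum of FPKM, it moved to between -0.22 (liver against heart and muscle) and 1.21 (tumor against liver), so small differences between tissues depend on the scaling.

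Against lung, the tumor was higher for 2 keratins and lower for 9, while 74.9% of all rows were called. Krt19 had a log2 difference, tumor minus lung, of -6.09 ± 0.17 (SE), and Krt8 differed by -5.82 ± 0.14, Krt18 by -5.49 ± 0.16 and Krt7 by -4.85 ± 0.09. The median over the 14 keratins was -1.82, and 0 over all rows. Against kidney, the tumor was higher for 2 and lower for 10, with 76.7% of all rows called. The differences were -5.89 ± 0.14 for Krt8, -3.98 ± 0.09 for Krt7, -3.87 ± 0.16 for Krt18 and -2.23 ± 0.17 for Krt19. Against liver, the tumor was higher for 3 and lower for 6, with 75.4% of all rows called. Krt8 differed by -7.96 ± 0.14, Krt18 by -7.76 ± 0.16, Krt19 by -1.11 ± 0.17 and Krt7 by -0.26 ± 0.09. The call of Krt7 against liver was lost on the TPM scale (-0.09, limma adjusted p = 0.369). Krt17 was higher in tumor than in liver by 1.84 ± 0.25. Krt16 and Krt17 were higher in tumor than in each of the 3 organs, Krt16 by 0.88 to 0.90. Krt16 entered the fit only through the 3 ICB tumors, so the filter itself favored a call of higher in tumor. Its SE also draws on libraries without reads. The highest adjusted p of a called keratin was 0.000261 against lung, 0.01 against kidney and 0.01 against liver (limma).

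Lung against kidney gave 6 higher and 3 lower keratins, and 73.1% of all rows were called. Krt19 was higher in lung by 3.85 ± 0.17, Krt80 by 3.14 ± 0.21, Krt79 by 2.40 ± 0.09, Krt18 by 1.63 ± 0.16 and Krt7 by 0.87 ± 0.09. Krt8 differed by -0.06 ± 0.14 (limma adjusted p = 0.711), which did not pass. On the TPM scale Krt8 came out higher in lung by 0.55 (limma adjusted p = 0.00528), while the median of all rows in that comparison moved to 0.39. Lung against liver gave 6 higher and 2 lower keratins, with 76.8% of all rows called. Krt80 was higher in lung by 5.47 ± 0.21, Krt19 by 4.97 ± 0.17 and Krt7 by 4.59 ± 0.09, while Krt18 and Krt8 were lower, with differences of -2.27 ± 0.16 and -2.14 ± 0.14. Kidney against liver gave 9 higher and 2 lower keratins, with 64.2% of all rows called. Krt18 and Krt8 were lower in kidney, with differences of -3.90 ± 0.16 and -2.08 ± 0.14, while Krt7 was higher by 3.72 ± 0.09, Krt80 by 2.33 ± 0.21 and Krt19 by 1.12 ± 0.17. The highest adjusted p of a called keratin was 0.00583 for lung against kidney, 0.00023 for lung against liver and 0.0358 for kidney against liver (limma).

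Heart and skeletal muscle, which hold little epithelium, gave a background for keratins of other cells. Against their mean, lung was higher for 8 keratins and lower for 1, kidney higher for 9 and lower for 1, and liver higher for 5 and lower for 3. The shares of all rows called were 75.6% for lung, 70.7% for kidney and 74% for liver. The largest differences were those of Krt8, at 8.01 ± 0.12 in liver, 5.94 ± 0.12 in kidney and 5.87 ± 0.12 in lung. Krt18 was higher by 7.53 ± 0.14 in liver, 5.26 ± 0.14 in lung and 3.63 ± 0.14 in kidney. Krt19 was higher by 5.86 ± 0.14 in lung, 2.01 ± 0.14 in kidney and 0.89 ± 0.14 in liver. Krt7 was higher by 4.85 ± 0.08 in lung, 3.98 ± 0.08 in kidney and 0.26 ± 0.08 in liver, where the call was lost on the TPM scale (0.15, limma adjusted p = 0.0864). Krt222 was lower in each of the 3 organs, with a difference of -1.94 ± 0.10 in liver. The highest adjusted p of a called keratin was 4.99e-05 for lung, 1.44e-05 for kidney and 0.00486 for liver (limma).

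The tumor against that background had 2 higher keratins, Krt17 by 1.39 ± 0.21 and Krt16 by 0.86 ± 0.06, and 2 lower ones, Krt222 with a difference of -1.83 ± 0.10 and Krt10 with -0.50 ± 0.09. This was 4 of 14 called, while 77.9% of all rows were called. The call of Krt16 has the same limit here, since it entered the fit only through the ICB tumors and its small SE draws on libraries without reads. Krt8 differed by 0.05 ± 0.12 (limma adjusted p = 0.743), Krt7 by -0.00 ± 0.08 (0.996), Krt18 by -0.24 ± 0.14 (0.133) and Krt19 by -0.22 ± 0.14 (0.164). None of the 4 simple keratins passed the test against heart and muscle in this fit, but other settings called 3 of them. With a pseudocount of 0.1 Krt18 (-0.77, limma adjusted p = 0.028) and Krt19 (-1.20, 0.000576) were called lower in tumor, and limma-voom on the recovered reads also called Krt19 lower (-3.08, adjusted p = 0.000135). On the TPM scale, where the median of all rows moved to 0.95, Krt8 was called higher (0.40, 0.0147). Most of these values rest on a few reads per library.

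The effect of ICB was tested within each tissue, 3 libraries against 3, on the rows that passed the level of 1 FPKM there. Over the 6 tissues this made 27 tests of keratins, and 0 passed limma with Benjamini-Hochberg adjustment over all rows of the tissue. At an unadjusted p under 0.05 there was 1, Krt16 in tumor, and limma-voom on recovered reads also called 0. The background was as low. In kidney 2 of 11901 rows were called (0.0168%). The other 5 tissues had 0 called rows (0%), of 11398 rows in tumor, 11476 in heart, 11410 in muscle, 11257 in liver and 12747 in lung, while 379 to 783 rows of a tissue had an unadjusted p under 0.05. By limma-voom 1 row was called in kidney. An exact permutation test of 3 against 3 cannot give a two-sided p below 0.1.

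Krt16, at chr11:100246091-100248902 on the minus strand (GRCm38, GENCODE M21), had the largest ICB difference of the 3 keratins tested in tumor, and it had been singled out with earlier results of these data known. It had 1.17, 1.92 and 1.49 FPKM in ICB tumors (63, 111 and 74 reads), against 0.827, 0.239 and 0.182 FPKM in IgG tumors (43, 13 and 11 reads). Every ICB tumor was above every IgG tumor, although 1 IgG tumor came close. The mean was 1.53 ± 0.373 FPKM in ICB tumors and 0.416 ± 0.357 FPKM in IgG tumors (SD, n = 3 each). The log2 difference was 0.85 ± 0.21 (SE), with an unadjusted p of 0.00476 and an adjusted p of 0.692 by limma with Benjamini-Hochberg adjustment over 11398 rows. The exact permutation p was 0.1, the smallest this design can give. Groups of 3 did not overlap for 13.1% of all rows tested in tumor. Krt16 passed the level of 1 FPKM only through the 3 ICB tumors. Of the 50-base stretches of its transcripts, 37.6% also occur in Krt14, Krt17 or Gm11597, so part of its reads may be shared. Over 9 alternatives its adjusted p ranged from 2.55e-05 to 0.981, and only the fit that pools the spread of all 36 libraries called it.

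The other 2 keratins tested in tumor overlapped between the groups, and their differences are given after their values were seen. Krt17 had 2.03, 3.40 and 1.99 FPKM in ICB tumors, against 5.36, 4.09 and 0.635 FPKM in IgG tumors, a log2 difference of -0.14 ± 0.49 (limma adjusted p = 0.968). Krt80 had 2.40, 3.96 and 2.73 FPKM in ICB tumors, against 3.70, 3.51 and 0.541 FPKM in IgG tumors, a log2 difference of 0.32 ± 0.43 (limma adjusted p = 0.895). One IgG tumor was low for both genes and for the whole family, with 2.51 FPKM in all keratin rows, where the other 2 IgG tumors had 11.7 and 9.64 FPKM and the ICB tumors 6.74, 10.8 and 6.87 FPKM. Without that library the difference was -0.74 for Krt17 and -0.21 for Krt80, which turns the direction of Krt80. Krt16 without it was 0.74 (limma adjusted p = 0.173), and 6 of all rows were then called. Without 1 of the other IgG tumors Krt17 turned to 0.24 or 0.08.

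Markers of other cell types varied between the same tumors. The 10 epidermal markers in the table summed to 9.92 to 10.6 FPKM in ICB tumors and 3.52 to 19.2 FPKM in IgG tumors, with the low value in the IgG tumor that was low for keratins. The defining cornified layer genes Lor and Flg were at or near 0, at no more than 0.0417 FPKM, and most of the sum came from Lgals7, a lectin of stratified epithelia. The uroplakin Upk1b was at 2.65 to 4.76 FPKM in ICB tumors, against 30.1, 34.4 and 1.73 FPKM in IgG tumors. Skeletal muscle markers summed to 15.6, 348.8 and 3.94 FPKM in ICB tumors, against 9.99, 4.66 and 5.50 FPKM in IgG tumors. The ICB tumor with 348.8 FPKM had the highest Krt16. The skeletal muscle libraries had 60610 to 90870 FPKM of these markers and 0 to 0.166 FPKM of Krt16. The 5 fibroblast markers summed to 241.5, 283.7 and 285.1 FPKM in ICB tumors, against 190.1, 85.45 and 276.6 FPKM in IgG tumors. All 5 had a difference above 0 with a median of 0.69 on the log2 scale, none was called, and none was near 0 in the tumors. The 8 mesothelial markers summed to 23.6, 20.9 and 21.5 FPKM in ICB tumors, against 57.8, 66.2 and 19.7 FPKM in IgG tumors. Upk1b is on this list too, so the sums include its values given above and are not a separate observation. Of the 8 markers, 4 stayed under 0.1 FPKM in all 6 tumors. The part of any of these marker lists in the Krt16 difference was not tested.

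Below the level needed for a test, Krt5 and Krt7 were lower in every ICB tumor than in any IgG tumor, an observation chosen after the values were seen. Of all rows below that level with a read in some tumor, 10.5% had groups that did not overlap. Krt5 had 0.0797, 0.0123 and 0 FPKM in ICB tumors (6, 1 and 0 reads), against 0.344, 0.211 and 0.178 FPKM in IgG tumors (25, 16 and 15 reads). Krt7 had 0 to 5 reads in ICB tumors, against 6 to 22 reads in IgG tumors. Both counts are too small for a statement on the level of these genes.

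**Figure D4:**
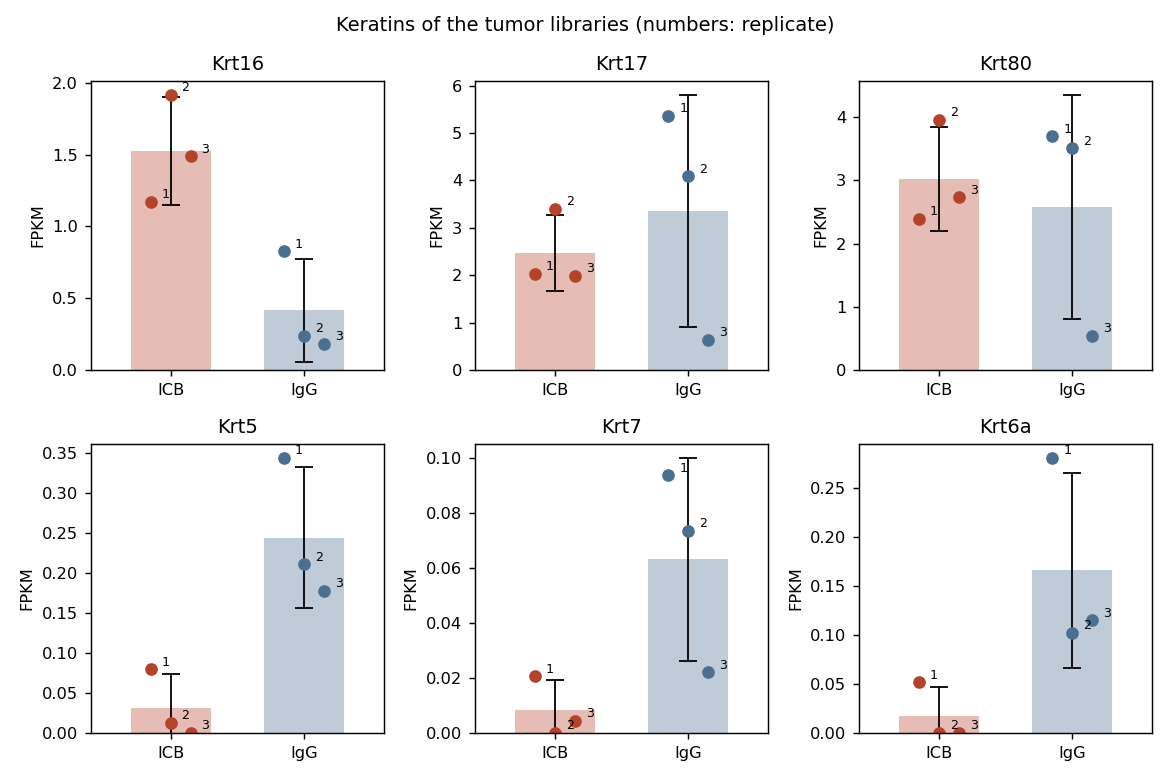
Krt16, Krt17, Krt80, Krt5, Krt7 and Krt6a in the 6 tumors (FPKM, each panel with its own scale), with ICB left of IgG. Bars and error bars are the mean and SD of 3 libraries, and numbered points are the replicates. All ICB points lie above the IgG points for Krt16 (1.17 to 1.92 against 0.182 to 0.827 FPKM) and below them for Krt5, Krt7 and Krt6a, which rest on 0 to 25 reads per library, while IgG replicate 3 is the lowest for Krt17 and Krt80.

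In kidney 8 of 9 keratin differences were below 0, in lung 6 of 7 and in liver 3 of 3, and none passed the test. The medians were -0.10 in kidney, -0.18 in lung and -0.31 in liver, against medians over all rows of -0.02, -0.01 and -0.02. The genes of 1 tissue share their libraries, so these counts are not separate observations. In liver the difference was -0.21 ± 0.24 for Krt8, -0.31 ± 0.22 for Krt18 and -0.43 ± 0.29 for Krt19 (limma adjusted p = 0.999 each). In kidney it was -0.01 ± 0.13 for Krt8, -0.10 ± 0.15 for Krt18, -0.14 ± 0.31 for Krt19 and -0.21 ± 0.17 for Krt7 (limma adjusted p of 0.992 to 1). In lung it was -0.18 ± 0.21 for Krt8, -0.29 ± 0.30 for Krt18, -0.12 ± 0.18 for Krt19 and -0.21 ± 0.18 for Krt7 (limma adjusted p = 0.988 each). On the TPM scale Krt7, Krt8 and Krt19 in lung and Krt8 and Krt18 in kidney turned to above 0, and the median of all rows in lung moved to 0.16. Of lung epithelial markers, the 7 airway genes summed to 10660 to 21240 FPKM in ICB lungs and 22240 to 42210 FPKM in IgG lungs. The 8 alveolar genes summed to 9526 to 12350 FPKM in ICB lungs and 12920 to 14540 FPKM in IgG lungs. Groups of 3 did not overlap for 8.65% of all rows tested in lung either. None of those 15 genes was called, and their part in the keratin differences was not tested.

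The groups of 3 overlapped for every keratin that passed the level in kidney, lung, liver, muscle or heart. Over all rows tested they did not overlap for 8.66% (kidney), 8.65% (lung), 6.84% (liver), 11.6% (muscle) and 9.76% (heart). The tests in muscle gave -0.75 ± 0.36 for Krt14, and those in heart 0.49 ± 0.24 for Krt80 (limma adjusted p of 0.876 and 0.997). Among rows below the level, and again named after their values were seen, Krt7 in liver had 0.193, 0.150 and 0.0734 FPKM with ICB, against 0.471, 0.308 and 0.280 FPKM with IgG. Krt10 in lung had 0.386, 0.404 and 0.649 FPKM with ICB, against 1.27, 0.792 and 0.906 FPKM with IgG. For both genes all 3 ICB libraries lay below all 3 IgG libraries of the tissue. Of all rows below the level with a read, 8.36% in liver, 9.07% in lung and 8.43% in muscle, where Krt16 was 0 to 0.0363 FPKM with ICB and 0.0380 to 0.166 FPKM with IgG, had groups that did not overlap. The 7 bile duct markers summed to 28.3 to 40.2 FPKM in ICB livers and 34.0 to 39.5 FPKM in IgG livers. Their part in the Krt7 values was not tested.

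**Figure D5:**
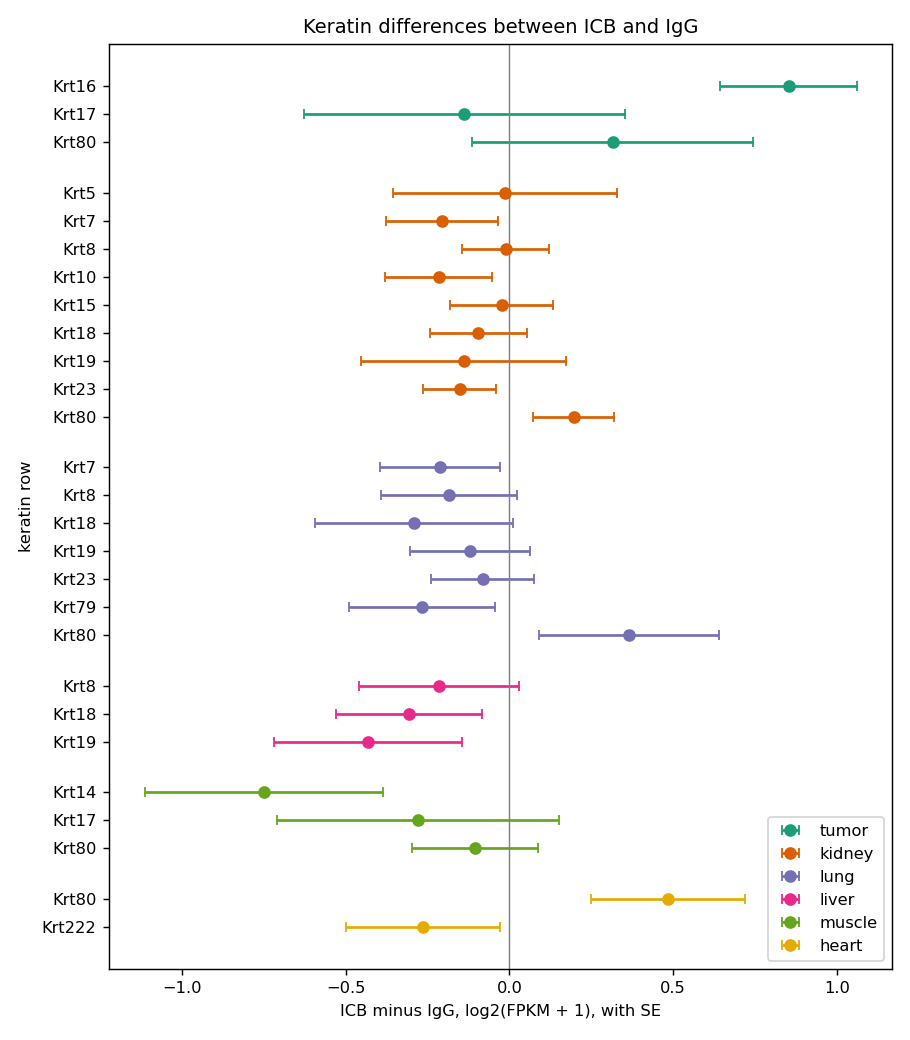
Log2 difference of ICB minus IgG, with its standard error, for every keratin row that passed the level of 1 FPKM in a tissue. Most points lie a little below 0 in kidney, lung and liver, Krt16 in tumor lies highest at 0.85, and none passed the adjusted threshold.

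Whether the effect of ICB on keratins differed between tumor and the epithelial organs was tested directly, as the ICB minus IgG difference in tumor less the mean of those in lung, kidney and liver. Of 14 keratins 1 was called, Krt16, with a difference of 0.87 ± 0.12 (SE) and a limma adjusted p of 0.000318, while 0.198% of all 16123 rows were called. The value is nearly the tumor difference itself, since Krt16 had 0 reads in lung and liver and at most 2 in a kidney library. The SE of 0.12 comes from a spread shared over all 36 libraries, most of them without Krt16, and the tumor libraries alone gave 0.21. Limma-voom on the recovered reads gave 2.72 ± 0.54 with an adjusted p of 0.146, so the call was lost. Over 39 alternatives the adjusted p was 1.56e-08 to 0.146. Without any 1 of the 3 ICB tumors Krt16 no longer passed the level in 3 libraries and could not be tested. For Krt8, Krt18, Krt19 and Krt7 the difference between tumor and organs was 0.15 to 0.24, and none was called.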

How the data were processed

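Bulk RNA-seq expression of 16 keratin rows was analysed in 36 libraries. The authors deposited FPKM values for 18781 rows with gene symbols. Per the submitters' processing notes, HISAT2 2.1.0, the mm10 build and edgeR were used, and not given in the sources used here are the counter, its strand setting and the annotation. Read numbers, recovered from the steps between FPKM values, were whole for 18781 of 18781 rows within 0.001 reads, and the same steps gave the scaling factor of each library. Rows without a name (15) and 3 symbols that name 2 rows each did not enter the tests.

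FPKM were tested as log2(FPKM + 1) with limma 3.58.1 in R 4.3.3 (two-sided moderated test, variance trended on the mean) and Benjamini-Hochberg adjustment at 0.05, on rows that reached 1 FPKM in 3 or more libraries of the tissue. ICB was compared with IgG in a fit per tissue. Tissues, and the ICB effect in tumor against that in the organs, were compared in 1 fit of 36 libraries with 12 group means. All keratins above that level are named, with ICB differences for Krt16 in tumor and for Krt7, Krt8, Krt18 and Krt19, and tissue differences for these 4 simple keratins and the 3 largest. Exceptions are marked in the text. The members, the 23 gene lists and the naming rule were chosen with earlier results of these data known.

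Tried as alternatives were no filter, a pseudocount of 0.1, scaling by the median of ratios, a TPM scale, limma-voom on the recovered reads, 1 fit of 36 libraries, a block by the number in the sample titles, and leaving out each library. No library was a copy of another in its group. The tests were run on simulated data too, but only after the real data had been analysed. Gene positions come from GENCODE M21, and 50-base stretches shared between genes were counted in its transcripts. Python 3.11.15, pandas 2.3.3, SciPy 1.17.1 and matplotlib 3.10.9 were used. No protein sequences were used here.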

Additional observations from a re-analysis of the deposited data

Results flagged for a closer look

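Krt16 was flagged for a difference between tissues in the effect of ICB. The log2 difference of ICB minus IgG in tumor less the mean of those in lung, kidney and liver was 0.87 ± 0.12 (SE, limma adjusted p = 0.000318), and Krt16 had 0 to 2 reads in any library of those 3 organs. Krt16 reached the level needed for the test only through the 3 ICB tumors and had been singled out with earlier results known, and its SE draws on libraries without reads. The test in the tumor libraries alone gave a limma adjusted p of 0.692. Limma-voom on the recovered reads gave an adjusted p of 0.146. The cause was not tested.

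Krt16 was flagged a second time because every ICB tumor was above every IgG tumor, while in skeletal muscle every ICB library was below every IgG library. The ICB effect in tumor less that in muscle was 0.93 on the log2 scale, and this difference was not tested. In muscle it rests on 1, 1 and 0 reads with ICB, against 5, 1 and 1 reads with IgG, which is at the limit of what these libraries can count.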

How the results depend on the processing

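Of 384 values of the named keratin differences under alternatives other than leaving out a library, 366 kept their direction and their side of the threshold, and of 1875 values with a library left out 1856 did. The 1875 do not include Krt16 without an ICB tumor, where it could not be tested. The cause of the changes was not tested. Reversed by median-of-ratios scaling was Krt8 in kidney, ICB minus IgG (0.0121). Reversed on the TPM scale were, for ICB minus IgG, Krt8 (0.10) and Krt18 (0.0124) in kidney and Krt7 (0.0005), Krt8 (0.032) and Krt19 (0.10) in lung, and between tissues Krt8 in lung against kidney (0.55) and Krt7 in tumor against heart and muscle (0.0605). Limma-voom reversed Krt17 in tumor (0.0503). It called 1 row in kidney, and 0 keratins where the main test called Krt16 between tumor and organs. It called Krt19 lower in tumor than in heart and muscle (-3.08), and the TPM scale lost the call of Krt7 in tumor against liver (-0.0872). With no filter 1 row each was called in kidney and liver. In 1 fit of all 36 libraries ICB against IgG called 62 rows (tumor), 1 of them the keratin Krt16, and 10 (kidney), 55 (lung), 68 (liver), 72 (muscle) and 4 (heart).

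With single libraries left out, the rows called were 0 to 6 in tumor, 1 to 9 in kidney, 0 to 39 in liver and 0 to 2 in heart, and the keratins called between tumor and organs 0 to 1. The 39 rows in liver came without 1 ICB library, and the 9 in kidney without another. The ICB differences that changed sign ranged from -0.74 to 0.24 for Krt17 and from -0.21 to 0.59 for Krt80 in tumor, from -0.078 to 0.0972 for Krt8, -0.24 to 0.0313 for Krt18 and -0.42 to 0.26 for Krt19 in kidney, and from -0.53 to 0.061 for Krt18 in lung. Tumor against heart and muscle ranged from -0.0116 to 0.0129 for Krt7 and from -0.0677 to 0.12 for Krt8.

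No paired analysis of ICB against IgG was possible because their samples share no number in their titles, although numbers recur across tissues. In the tissue comparisons a replicate block by title number turned Krt7 in tumor against heart and muscle to 0.0051 and changed no call. For the ICB effect on Krt16 in tumor against the organs, the block raised the limma adjusted p from 0.000318 to 0.0127. Deviations of log2(FPKM + 1) from the group mean over 7426 rows were correlated between samples of different tissues and the same treatment. Deviations of samples of 1 number correlated at -0.341 to 0.592 (median 0.151, 40 of 56 pairs over 0.1). Those of different numbers correlated at -0.624 to 0.565 (median -0.0495, 52 of 214). The labels do not say what the number is and not every pair passed 0.1, so it was not taken as a pairing. Scaling to reads alone, tried after seeing the data, turned the order of liver and lung in summed keratin FPKM (342.7 and 465.3). Depth limits the tumor keratins, Krt16 having 11 to 111 reads per tumor.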
